A study of Mus musculus with 2 samples.

Results

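Acta2, Actg2, Tagln, Myh11, Cnn1, Myl9, Tpm2, Des and Lmod1 are genes of the contractile apparatus of smooth muscle, and they were read by symbol in whole ovaries of mice at postnatal day 2. They are 9 of the 31057 genes counted. Each was followed by its UMIs (unique molecular identifiers, by which each captured transcript is counted a single time) and by the share of cells that carry it, across groups of cells gated on genes outside the set. The samples were 2 single-cell libraries of untreated female CD1 mice, replicate 1 and replicate 2. CD1 is an outbred stock, and each library pooled the ovaries of several pups of a single mother, so that the spread between the libraries holds the litter and the droplet run together. Cells were gated into 7 groups within each library, which are named by their gate genes: perivascular (Rgs5 and Notch3), interstitial (Col1a2 and Dcn) with and without Mfap5, mesothelial (Upk3b), granulosa (Foxl2, Fst and Wnt6), endothelial (Cdh5) and germ (Ddx4 and Dazl).

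Smooth muscle cells shorten when myosin filaments pull on actin filaments. Acta2 and Actg2 encode the smooth muscle actins, Myh11 the smooth muscle myosin heavy chain and Myl9 a regulatory light chain whose phosphorylation switches the motor on. Tpm2 encodes a tropomyosin that lies along the actin filament, Cnn1 (calponin) and Tagln (transgelin) bind actin, Des (desmin) forms the intermediate filaments of muscle and Lmod1 (leiomodin) nucleates actin filaments. Mural cells, the pericytes and smooth muscle cells around blood vessels, use these genes to differing degrees, and in the ovary they are also known from the theca layer that forms around growing follicles. Many of these genes are controlled by serum response factor (Srf) and its cofactor myocardin (Myocd) through the CArG box, a motif of 10 bases.

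In the GRCm38 annotation (GENCODE release M21) all 9 genes are protein coding. The actins are Acta2 (ENSMUSG00000035783, chr19:34241090-34255590, minus strand) and Actg2 (ENSMUSG00000059430, chr6:83512905-83536265, minus strand). The myosin genes are Myh11 (ENSMUSG00000018830, chr16:14194535-14291372, minus strand) and Myl9 (ENSMUSG00000067818, chr2:156775420-156781658, plus strand). Tpm2 (ENSMUSG00000028464) lies at chr4:43514711-43523765 on the minus strand. The calponin family members are Tagln (ENSMUSG00000032085, chr9:45929619-45936058, minus strand) and Cnn1 (ENSMUSG00000001349, chr9:22099216-22109630, plus strand). Des (ENSMUSG00000026208, chr1:75360329-75368579) and Lmod1 (ENSMUSG00000048096, chr1:135324807-135368065) are both on the plus strand of the same chromosome. Tagln overlaps Pcsk7 and the antisense gene Gm48529 on the opposite strand, Des overlaps the antisense gene Gm15179, and Lmod1 contains the snRNA gene Gm22796. The actins are near-identical as proteins, and a read from a stretch of coding sequence that they share can fit several genes. Mfap5+ interstitial cells held 1154 UMIs of Acta2 and 1 UMI of Actg2 in replicate 1, and 1164 and 43 UMIs in replicate 2. Whether reads of one actin were counted for another was not tested.

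The RefSeq promoter table held 6 of the 9 genes, Acta2, Cnn1, Myl9, Tpm2, Des and Lmod1. The 250 bases before each start site were searched on both strands, as the CArG box is its own reverse complement. An exact box was present in 1 of the 6, Myl9, against 1.47% of all 32851 promoters, and a box with at most 1 mismatched base was present in 3 of the 6 (Acta2, Myl9 and Lmod1), against 18.6% of all promoters. The upstream sequences of Myl9 and Lmod1 are shown because they hold such boxes, and that of Des because it differed most between perivascular and interstitial cells among the genes found in both libraries. They are written from GRCm38.p6 on the plus strand, with boxes of at most 1 mismatch in capitals. Those of Myl9 and Lmod1 stop before the first base of an annotated exon. All 250 bases are shown for Des, as 0 of them lie in an annotated exon.
Myl9, chr2:156775214-156775419: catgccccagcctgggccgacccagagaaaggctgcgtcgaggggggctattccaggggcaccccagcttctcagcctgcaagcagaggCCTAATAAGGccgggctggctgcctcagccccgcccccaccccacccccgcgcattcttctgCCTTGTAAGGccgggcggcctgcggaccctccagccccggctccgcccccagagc
Lmod1, chr1:135324563-135324806: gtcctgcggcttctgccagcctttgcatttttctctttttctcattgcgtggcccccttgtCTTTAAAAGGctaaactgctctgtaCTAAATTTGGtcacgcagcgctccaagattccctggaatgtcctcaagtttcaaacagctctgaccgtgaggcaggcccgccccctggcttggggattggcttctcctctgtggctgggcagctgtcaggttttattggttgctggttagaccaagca
Des, chr1:75360042-75360291: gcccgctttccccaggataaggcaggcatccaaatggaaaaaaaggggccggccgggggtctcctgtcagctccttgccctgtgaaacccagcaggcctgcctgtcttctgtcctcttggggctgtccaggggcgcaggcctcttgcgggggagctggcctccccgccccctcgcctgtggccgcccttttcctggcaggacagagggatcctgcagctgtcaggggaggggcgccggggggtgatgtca
The exact box of Myl9 lies 161 to 152 bases before the RefSeq start site and its second box, with 1 mismatch, 99 to 90 bases before it. The Myl9 sequence shown leaves out the last 44 bases before that site, which lie in an annotated exon. The boxes of Lmod1 each hold 1 mismatch. In Acta2 the boxes CCCTATATGG and CCTTGTTTGG, each with 1 mismatch, lie 84 to 75 and 34 to 25 bases before the RefSeq start, inside the first exon of a longer annotated transcript. A match of letters is a description of the window only, and binding was not measured.

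The deposited tables held 4094 and 4847 cells, of which 3642 and 4371 were kept after filters, and 21 barcodes occurred in both libraries. Median UMIs per cell were 8315.5 in replicate 1 and 5798 in replicate 2. A single gate was passed by 82.1% of the kept cells. The perivascular gate held 31 and 27 cells with 172373 and 144276 UMIs, so that it was the gate with the fewest UMIs. The Mfap5+ interstitial gate held 158 and 199 cells, the Mfap5- interstitial gate 1122 and 2121, the mesothelial gate 100 and 141, the granulosa gate 1531 and 506, the endothelial gate 59 and 26 and the germ gate 197 and 361.

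The perivascular label was checked on genes outside the gates. Of 12 other mural genes, 11 were higher in perivascular than in either interstitial gate (edgeR quasi-likelihood test over 12430 genes, adjusted p below the threshold and over 2-fold), Anpep being the exception. Kcnj8 and Abcc9, subunits of a potassium channel of mural cells, and Pdgfrb, the receptor that recruits pericytes to vessels, were among them. Of all tested genes, 2.83% were called higher in perivascular than in Mfap5+ and 3.2% than in Mfap5- interstitial cells. Further interstitial markers still summed to 1578 and 1157.5 CPM (UMIs divided by all UMIs of the gate and library, times 1000000) in perivascular cells, against 6648 and 5126 in Mfap5+ interstitial cells, and 1 and 5 perivascular cells also passed the interstitial gate. Of 6 further endothelial markers, Pecam1, Cldn5 and Tie1 were at 0 in perivascular cells, and the list summed to 174 and 104 CPM there, most of it from Emcn, which was higher than in either interstitial gate. Of 10 genes of striated muscle, 8 were at 0 in perivascular cells, where a count of 0 allows up to 17.4 and 20.8 CPM. In endothelial cells 7 of them were at 0 and in Mfap5+ interstitial cells 6, so these zeros say little about the label.

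The actin Acta2 was highest in perivascular cells and fell off over the gates in the order of the plot of levels. It stood at 1247 and 2370.5 CPM in perivascular cells, 906 and 749 in Mfap5+ interstitial, 611 and 169.5 in Mfap5- interstitial, 52.6 and 60.6 in mesothelial, 11.1 and 19.2 in granulosa, 4.48 and 3.89 in endothelial and 0.894 and 0.731 in germ cells (replicate 1 and replicate 2). The ranges of the perivascular and both interstitial gates did not overlap between gates, although the libraries of the Mfap5- gate differed by 3.61-fold. Between neighbours in this order, the Mfap5- interstitial gate exceeded the mesothelial gate (log2 fold change 2.66, SE 0.46, edgeR adjusted p = 0.000251) and the mesothelial gate exceeded the granulosa gate (2.02, SE 0.49, adjusted p = 0.00612), whereas no other neighbouring pair was told apart. Of all tested genes, 10% and 8.17% were called in those directions.

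Actg2, the other smooth muscle actin, was rare and uneven. Perivascular cells held 0 and 19 UMIs, or 0 (a count that allows up to 17.4 CPM) and 131.7 CPM, and Mfap5+ interstitial cells held 1 and 43 UMIs, or 0.785 and 27.7 CPM. Mfap5- interstitial cells held 2 and 27 UMIs, and mesothelial and endothelial cells held 0 in both libraries. Replicate 2 was thus the high library in every gate around the vessels and stroma, and the libraries of each of these gates lay far apart. No neighbouring pair of gates was told apart for Actg2.

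**Figure D1:**
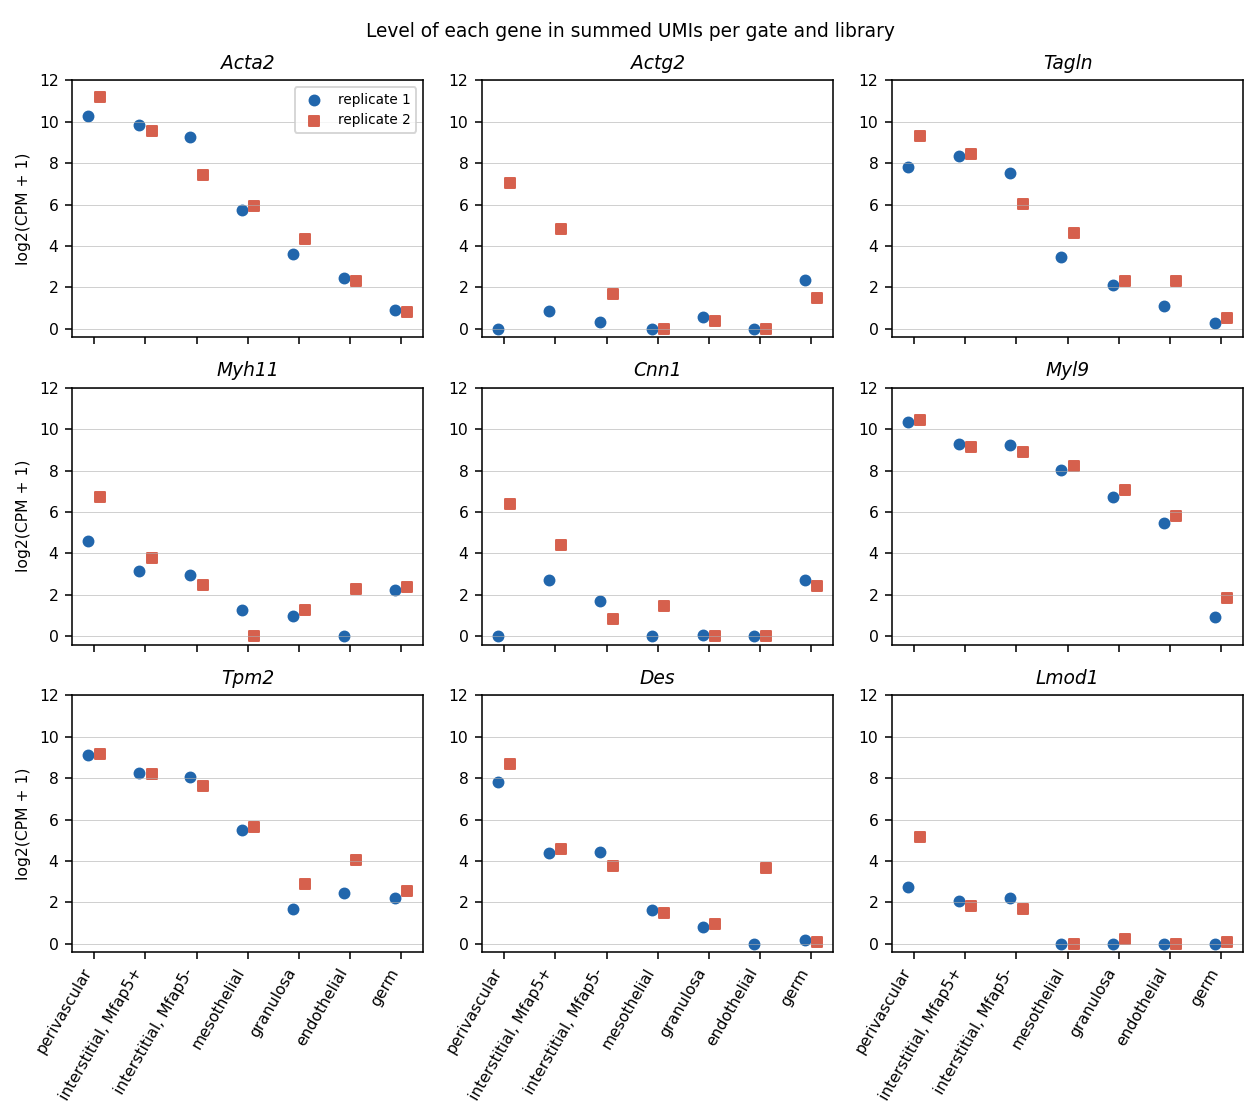
Level of each of the 9 genes as log2(CPM + 1) of UMIs summed per gate (x axis), with 1 point for each library (circles, replicate 1, and squares, replicate 2). Myl9 differs by 1.08- to 1.25-fold between libraries in the perivascular and both interstitial gates. Actg2 and Cnn1 are at 0 in perivascular cells of replicate 1 and at 131.7 and 83.2 CPM in replicate 2.

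Myl9, the regulatory light chain, was carried more widely than the other genes. Its levels were 1294 and 1393 CPM in perivascular cells, 627 and 560.4 in Mfap5+ interstitial, 592 and 473 in Mfap5- interstitial, 263 and 298 in mesothelial, 103.6 and 133.5 in granulosa, 43.7 and 54.5 in endothelial and 0.894 and 2.66 in germ cells. The libraries differed by 1.08-fold in the perivascular, 1.12-fold in the Mfap5+ and 1.25-fold in the Mfap5- interstitial gate, and the perivascular libraries lay above all others. Of the 6 neighbouring pairs, 4 were told apart, and the pair of interstitial gates was not (log2 fold change 0.14, SE 0.23). The called pairs were perivascular over Mfap5+ interstitial, mesothelial over granulosa, granulosa over endothelial and endothelial over germ cells, and in the last 2 of these 13.9% and 22.8% of all tested genes were called. Myh11, the heavy chain, held only 4 and 15 UMIs in perivascular cells, or 23.2 and 104 CPM, against 7.85 and 12.9 CPM in Mfap5+ interstitial and 6.8 and 4.63 CPM in Mfap5- interstitial cells. Both perivascular libraries were above both libraries of every other gate.

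Tpm2 followed the same order as Myl9 over the first 4 gates. Its levels were 563 and 575 CPM in perivascular cells, 303 and 293 in Mfap5+ interstitial, 268 and 195 in Mfap5- interstitial and 43.4 and 49.3 in mesothelial cells. In granulosa, endothelial and germ cells it lay between 2.21 and 15.6 CPM. The step from Mfap5- interstitial to mesothelial cells was called (log2 fold change 2.20, SE 0.30, edgeR adjusted p = 2.83e-05).

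The calponin family members differed in how far they reached. Tagln stood at 226 and 638 CPM in perivascular cells, 329 and 347 in Mfap5+ interstitial, 182 and 63.8 in Mfap5- interstitial, 9.96 and 23.8 in mesothelial and 3.31 and 3.93 in granulosa cells. The perivascular libraries lay on either side of the Mfap5+ interstitial libraries, so that for Tagln the first 2 gates could not be ordered. Cnn1 had 0 and 12 UMIs in perivascular cells (0 and 83.2 CPM), 7 and 31 in Mfap5+ interstitial cells (5.5 and 19.9 CPM), and 18 and 10 in Mfap5- interstitial cells (2.31 and 0.798 CPM). Its perivascular level therefore came from replicate 2 alone.

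Des was the gene that set perivascular cells apart most plainly in both libraries. It was at 226 and 409 CPM there, against 19.6 and 23.2 in Mfap5+ interstitial and 20.5 and 12.4 in Mfap5- interstitial cells. Mesothelial, granulosa and germ cells did not exceed 2.13 CPM, and endothelial cells held 0 and 3 UMIs. Lmod1 was the rarest of the 9 genes, with 38 and 46 UMIs in all kept cells. Perivascular cells held 1 and 5 of them and Mfap5- interstitial cells 28 and 27, and it was too low to be tested.

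The first comparison asked whether perivascular cells exceed each other group. Against Mfap5- interstitial cells, all 8 tested genes were higher in perivascular cells, where 3.2% of all 12430 tested genes were called in that direction (edgeR, adjusted p under 0.05 and over 2-fold). Des was 18.1-fold higher (log2 fold change 4.18, SE 0.41, adjusted p = 4.35e-06), Myh11 10.2-fold (3.35, SE 0.67, adjusted p = 0.00459) and Acta2 4.34-fold (2.12, SE 0.43, adjusted p = 0.005). The Myh11 call rested on 4 and 15 perivascular UMIs, and the 15 of replicate 2 all lay in 3 cells. Tagln was 3.25-fold, Myl9 2.38-fold and Tpm2 2.32-fold higher, with adjusted p between 0.00414 and 0.0337. Actg2 and Cnn1 were also called (log2 fold changes 5.45, SE 1.37, and 4.63, SE 1.14), but each held 0 UMIs in the perivascular cells of replicate 1, and DESeq2 left them at adjusted p = 0.141 and 0.0976. On the TMM-scaled values of the fit, 3 of the 8 genes were over 2-fold higher without replicate 2, and all 8 without replicate 1. On unscaled CPM the count without replicate 2 was 5, as Acta2 and Tpm2 lay next to the limit. The median of the 8 genes was a log2 fold change of 2.73, against -0.26 over all genes tested.

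Within each library the same comparison gave different sizes. For Acta2 the perivascular level was 2.04 times that of Mfap5- interstitial cells in replicate 1 and 14 times in replicate 2, and for Tagln 1.24 and 9.99 times. For Myh11 it was 3.41 and 22.5 times, from 4 and 15 perivascular UMIs. Des (11 and 32.9 times), Myl9 (2.18 and 2.95 times) and Tpm2 (2.1 and 2.95 times) were higher in both. The Mfap5- interstitial cells of replicate 2 had lower Acta2 and Tagln, a lower median depth (4859 against 6307 UMIs) and more RNA of 5 erythroid markers, which summed to 1522 CPM there and to 33.5 CPM in replicate 1, and the part of these in the result was not tested.

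Against Mfap5+ interstitial cells, 3 of the 8 tested genes were higher in perivascular cells, against 2.83% of all tested genes. Des was 13.9-fold higher (log2 fold change 3.8, SE 0.43, edgeR adjusted p = 3.27e-05), Myh11 5.55-fold (2.47, SE 0.69, adjusted p = 0.0468) and Myl9 2.15-fold (1.11, SE 0.25, adjusted p = 0.0119). Acta2 (1.05, SE 0.42), Tpm2 (0.86, SE 0.30) and Tagln (0.25, SE 0.45) did not pass. With the libraries as a replicate block, Tpm2 reached adjusted p = 0.045, still under the 2-fold limit. For Tagln the perivascular level was 0.688 times the Mfap5+ interstitial level in replicate 1 and 1.84 times in replicate 2, so the libraries differed in direction. The call of Myh11 was lost with stricter gates (adjusted p = 0.054), without the cell filter (0.0618), when doublets were kept (0.0662) and when cells were thinned to 2000 UMIs. On TMM-scaled values, 2 of the 8 genes were over 2-fold higher without replicate 2, and 6 without replicate 1. On unscaled CPM the count without replicate 2 was 3, with Myl9 next to the limit.

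**Figure D2:**
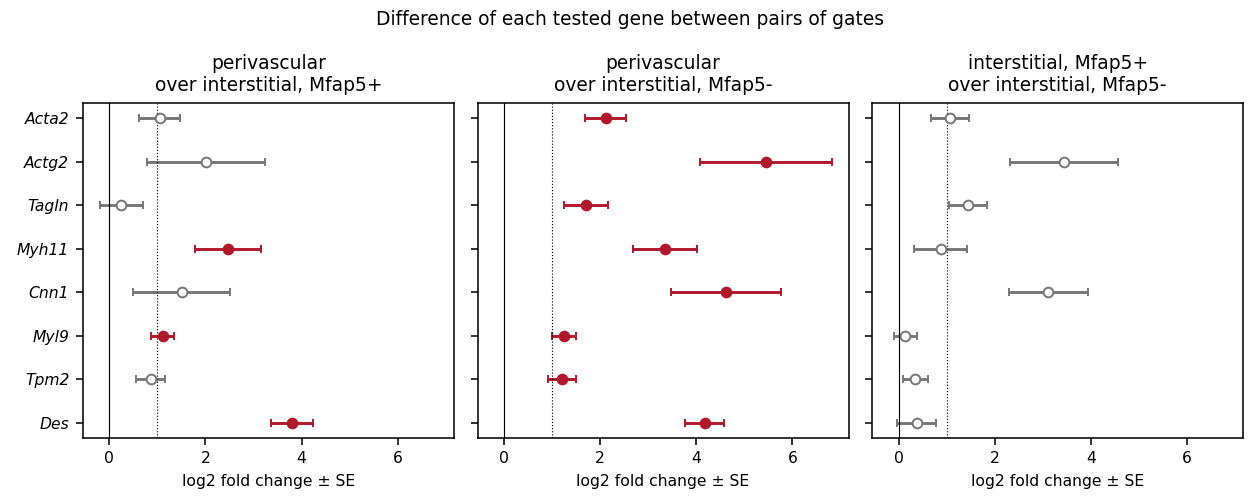
Log2 fold change with its standard error (x axis) of the 8 tested genes (y axis) for 3 pairs of gates, from 2 libraries per gate. Filled red points passed the test and the 2-fold limit (dotted line at 1), which holds for 3 genes against Mfap5+ interstitial cells, for 8 against Mfap5- interstitial cells and for 0 between the interstitial gates.

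All 8 tested genes were also higher in perivascular cells than in mesothelial, granulosa and germ cells, where 5.78%, 6.72% and 18.1% of all tested genes were called in that direction. Against endothelial cells, 7 of 8 were higher (background 4.53%), the exception being Actg2 (edgeR adjusted p = 0.0771, or 0.0346 with the libraries as a replicate block). Every call of Actg2 and Cnn1 here rested on replicate 2, as perivascular cells of replicate 1 held 0 UMIs of both. Over germ cells DESeq2 called 6 genes, without Actg2 and Cnn1. Against mesothelial cells, which had 0 UMIs of Actg2, perivascular cells held at least 61.8-fold more per UMI, taking 3 counts over both libraries as the floor. That bound rests on replicate 2, since replicate 1 held 0 UMIs of Actg2 in both gates. Myl9 differed by a log2 fold change of 2.05 (SE 0.25) over mesothelial and 3.36 (SE 0.26) over granulosa cells, the smallest among the 8 genes in each of these pairs, and Cnn1 by 2.69 (SE 1.01) over germ cells, the smallest there. Tpm2 and Des exceeded granulosa cells by 7.14 (SE 0.38) and 8.41 (SE 0.52) on the log2 scale.

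The perivascular values of replicate 2 rested for some genes on few cells. In that library 3 of the 27 perivascular cells carried UMIs of all 9 genes, with 107, 59 and 47 UMIs of Acta2 and 8, 3 and 8 of Actg2. They held 11, 12 and 27 UMIs of Rgs5, 5, 2 and 1 of Notch3, and 0 of Mfap5 and Dcn. Of Col1a2, the other gene of the interstitial gate, they held 13, 2 and 6 UMIs. In replicate 1, 0 of 31 perivascular cells held as many as 7 of the genes. Without the 3 cells, a step chosen after their values were seen and given without a test, Actg2 and Myh11 in the remaining 24 cells were at 0 CPM, and Cnn1 was at 7.95 CPM, a single UMI. Tagln went from 638 to 127 CPM and Acta2 from 2370.5 to 1025 CPM. Des went only from 409 to 389 CPM and Myl9 from 1393 to 1065 CPM, so these genes were carried by the other cells too.

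**Figure D3:**
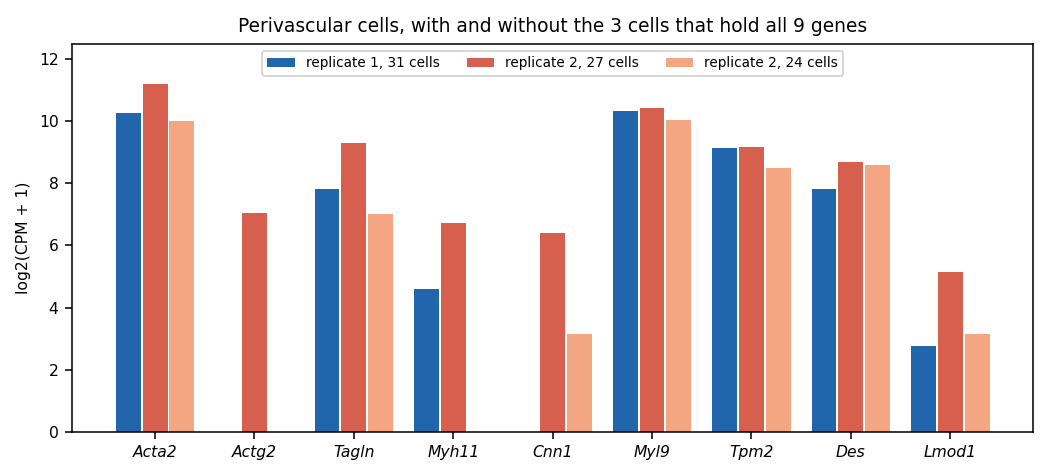
Level of each gene (x axis) as log2(CPM + 1) in perivascular cells of replicate 1 (31 cells, blue), of replicate 2 (27 cells, red) and of replicate 2 without the 3 cells that carry all 9 genes (24 cells, pale). Actg2 and Myh11 drop to 0 without those cells, whereas Des stays at 389 CPM.

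Across all kept cells, 17 held UMIs of 7 or more of the genes, 4 in replicate 1 and 13 in replicate 2. Of the 13, 3 were perivascular, 6 Mfap5+ interstitial and 2 Mfap5- interstitial, and 2 passed several gates. A single Mfap5+ interstitial cell of replicate 2 also carried all 9 genes, with 100 UMIs of Acta2, 44 of Tagln and 0 of Rgs5 and Notch3. Outside germ cells, the 13 cells held 49.5% of the Actg2, 47.7% of the Cnn1, 22.2% of the Lmod1, 18.2% of the Myh11, 17.6% of the Tagln, 13.5% of the Acta2, 8.43% of the Des, 3% of the Tpm2 and 2.2% of the Myl9 UMIs of replicate 2. The 4 cells of replicate 1 held 19% of the Actg2, 12.2% of the Cnn1, 5.26% of the Lmod1 and between 0.229% and 1.8% of the UMIs of each other gene. As cells were picked for the number of genes they carry, high shares of the rare genes follow from the choice.

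The second comparison asked whether interstitial cells with a UMI of Mfap5, a gene of elastic microfibrils, differ from those with 0. Median depth was lower in Mfap5- cells (6307 and 4859 UMIs) than in Mfap5+ cells (7141.5 and 6703). Cells whose Mfap5 was missed can therefore be among the Mfap5- cells. None of the 8 tested genes passed the test (0 of 8 by edgeR and 0 by DESeq2), and of all 12430 genes only 1 was called higher, which is 0.00805% and is Mfap5 itself, the gate gene. At an unadjusted p under 0.05 there were 4 of the 8 genes, Acta2 (log2 fold change 1.07, SE 0.40), Actg2 (3.44, SE 1.12), Tagln (1.45, SE 0.39) and Cnn1 (3.12, SE 0.83), against 2.78% of all genes. The genes and gates were chosen with earlier results of these data known, so this share is a description only. Within the libraries, the Acta2 level of Mfap5+ cells was 1.48 and 4.42 times that of Mfap5- cells, and the Tagln level 1.80 and 5.44 times. The Cnn1 level was 2.38 and 25 times. For Actg2, Mfap5+ cells of replicate 1 held 1 UMI, and a single cell held 21 of the 43 UMIs of replicate 2. The 6 Mfap5+ and 2 Mfap5- cells counted above in replicate 2 were left out, without a test. Cnn1 went from 19.9 to 5.98 CPM in Mfap5+ and from 0.798 to 0.479 CPM in Mfap5- cells. Actg2 went from 27.7 to 18 and from 2.15 to 0.719 CPM. These cells were picked for the number of genes they carry, so falls follow from the choice. Cnn1 fell by the larger factor in Mfap5+ cells, but Actg2 by the larger factor in Mfap5- cells. The Mfap5+ cell with 21 UMIs of Actg2 was not among those left out, and 27 UMIs remained in that gate. The Actg2 level of Mfap5+ cells in replicate 2 thus rests largely on a single cell. Myl9 (1.06 and 1.18 times) and Tpm2 (1.13 and 1.5 times) differed less between the gates. On TMM-scaled values, 2 genes were over 2-fold higher without replicate 2, and 5 without replicate 1. In a fit without the filter on low genes, Acta2, Actg2, Tagln and Cnn1 were called, with adjusted p at or below 7.95e-06, and with cells thinned to 2000 UMIs Tagln was.

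Mfap5+ interstitial cells exceeded mesothelial cells for 7 of the 8 tested genes (9.28% of all tested genes), granulosa cells for 8 (11.3%), endothelial cells for 5 (10.3%) and germ cells for 5 (25.9%). Myl9 was the exception against mesothelial cells, where its log2 fold change was 0.95 (SE 0.24, edgeR adjusted p = 0.00719), under the 2-fold limit. Against germ cells, Actg2, Myh11 and Cnn1 did not pass.

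Because deeper cells show more genes, shares were taken after each cell was reduced at random to 2000 UMIs, and the intervals are exact 95% binomial ones that cover counting error only. Acta2 was then carried by 71% (52 to 85.8%) and 51.9% (31.9 to 71.3%) of perivascular cells, by 52.9% and 36.2% of Mfap5+ interstitial cells and by 47.4% and 17.4% of Mfap5- interstitial cells. Granulosa cells, which are expected to lack the gene, gave 1.77% and 4.37%, at medians of 9904 and 9755 UMIs per cell before thinning against 4844 and 4566 in perivascular cells. The share in Mfap5- interstitial cells differed between libraries beyond counting error, 47.4% (44.4 to 50.3%) against 17.4% (15.8 to 19.1%). Tagln was carried by 22.6% and 25.9% of perivascular, 27.4% and 32.2% of Mfap5+ interstitial and 18.1% and 8.58% of Mfap5- interstitial cells.

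Des differed sharply in its share between perivascular and interstitial cells. Des was carried by 41.9% (24.5 to 60.9%) and 55.6% (35.3 to 74.5%) of perivascular cells, against 3.82% and 6.53% of Mfap5+ interstitial and 4.65% and 2.54% of Mfap5- interstitial cells. Myl9 was carried by 77.4% and 77.8% of perivascular, 67.5% and 63.3% of Mfap5+ interstitial, 64.1% and 55.2% of Mfap5- interstitial and 43% and 49.6% of mesothelial cells. Its intervals overlapped between the perivascular and Mfap5+ interstitial gates in both libraries, those of Des did not. Tpm2 was carried by 54.8% and 48.1% of perivascular cells and by 7% and 8.51% of mesothelial cells.

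**Figure D4:**
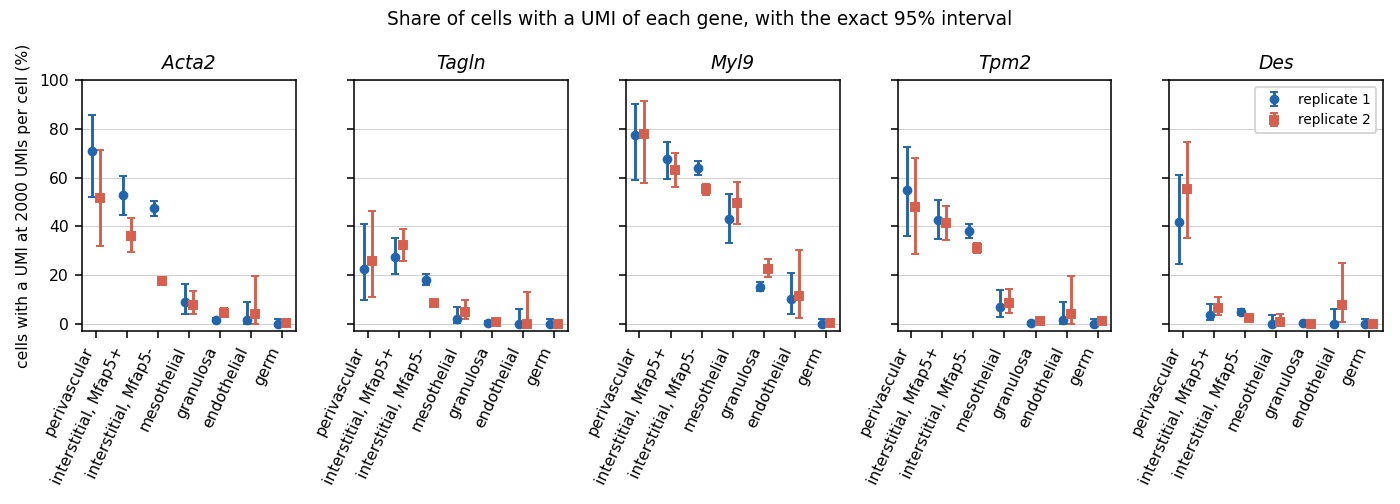
Share of cells with at least 1 UMI of Acta2, Tagln, Myl9, Tpm2 and Des at 2000 UMIs per cell (y axis, percent) by gate (x axis), with exact 95% intervals, in replicate 1 (blue circles) and replicate 2 (red squares). Des is found in 41.9% and 55.6% of perivascular cells and in at most 7.69% of the cells of any other gate, while Myl9 declines gradually from 77.8%.

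Within a gate, UMIs of Acta2 and Tagln were unevenly spread over cells. In thinned Mfap5+ interstitial cells, the 10% of cells with the most Acta2 held 50.3% and 68% of its UMIs, whereas the 10% with the most Myl9 held 35.2% and 41.3%. The 10% with the most Tagln held 70.4% and 66.8%, at means of only 0.688 and 0.925 UMIs per cell. Low counts raise such shares, and the part of counting in them was not tested. The highest thinned cell had 32 and 27 UMIs of Acta2 beside medians of 1 and 0. Perivascular cells were likewise uneven for Acta2, with a median of 1 in both libraries. The top 4 of 31 and the top 3 of 27 cells held 45.1% and 63% of its UMIs.

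Co-detection was read in the same thinned cells. Of perivascular cells, 22.6% and 25.9% carried both Acta2 and Tagln, and the product of the separate shares was 16% and 13.4%. All 7 Tagln-bearing perivascular cells of each library also carried Acta2. In Mfap5+ interstitial cells 21.7% and 20.1% carried both, beside products of 14.5% and 11.6%, and in Mfap5- interstitial cells 13.7% and 3.5%, beside 8.55% and 1.49%. Tagln was found in 41% and 55.6% of Mfap5+ interstitial cells with Acta2 and in 12.2% and 18.9% of those without. Myl9 and Tpm2 were found together in 29.3% and 28.1% of Mfap5+ interstitial cells, beside products of 28.8% and 26.1%. Tagln and Myl9 were found together in 20.4% and 26.1% of these cells, beside products of 18.5% and 20.4%, and Acta2 and Myl9 in 39.5% and 26.1%, beside 35.7% and 22.9%. Des did not follow Acta2 in a single direction in perivascular cells, at 32.3% beside a product of 29.8% in replicate 1 and at 18.5% beside 28.8% in replicate 2.

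Counting how many of the 9 genes a thinned cell carried ordered the gates in the same way. Perivascular cells held a mean of 2.74 and 2.85 genes, Mfap5+ interstitial cells 2.01 and 1.87, Mfap5- interstitial cells 1.75 and 1.16, mesothelial cells 0.61 and 0.723 and granulosa cells 0.182 and 0.294. At least 3 genes were carried by 54.8% and 48.1% of perivascular, 33.1% and 26.6% of Mfap5+ interstitial, 26.5% and 8.34% of Mfap5- interstitial and 0% and 0.709% of mesothelial cells. Of 1529 and 504 thinned granulosa cells, 0 carried 3 or more.

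**Figure D5:**
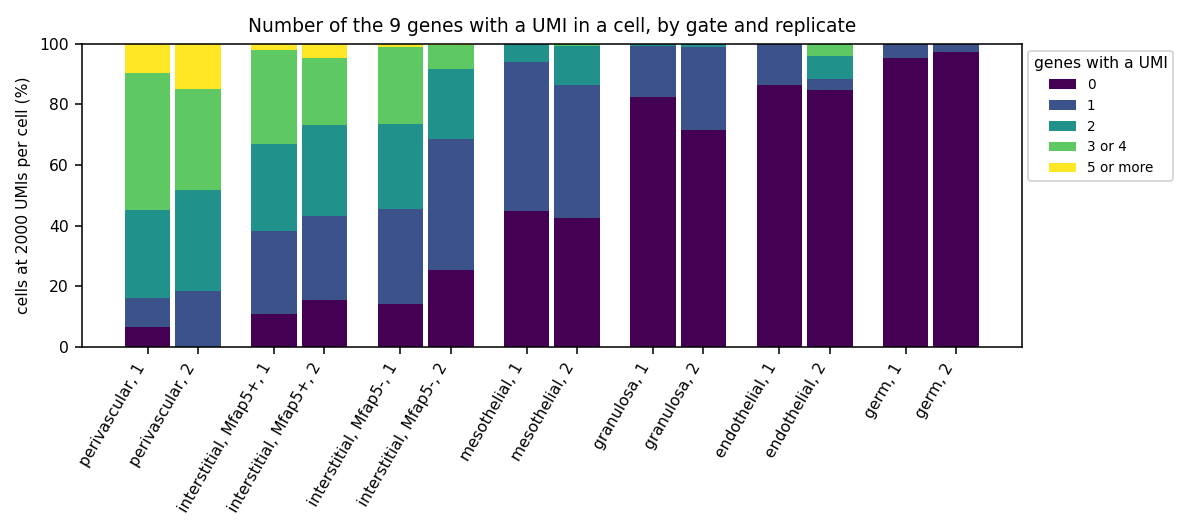
Share of thinned cells (y axis, percent) that carry UMIs of 0, 1, 2, 3 or 4, and 5 or more of the 9 genes, as stacked bars by gate and replicate (x axis). Cells with 3 or more genes make up 54.8% and 48.1% of perivascular cells and 0 of the granulosa cells.

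Outside the vessel wall and stroma most of the genes were low, but not uniformly so. Myl9 still stood at 263 and 298 CPM in mesothelial and at 103.6 and 133.5 CPM in granulosa cells. Mesothelial cells, which cover the ovary, held less Acta2, Tagln, Myh11, Tpm2 and Des than Mfap5- interstitial cells, and Myl9 differed from them by a log2 fold change of 0.80 (SE 0.24, edgeR adjusted p = 0.0152), under the 2-fold limit. Germ cells held few UMIs of Acta2 (13 and 14) and Tagln (3 and 8) but 82 and 84 of Cnn1, 53 and 81 of Myh11 and 61 and 34 of Actg2, at a median of 77759 and 58901 UMIs per cell. Granulosa cells held 1 and 0 UMIs of Cnn1 and 201 and 122 of Acta2, so the genes stood in another ratio to each other there. Cnn1 was higher in germ than in granulosa cells (log2 fold change of granulosa over germ cells -6.49, SE 1.20, edgeR adjusted p = 0.000146), as were Myh11 (-1.91, SE 0.56, adjusted p = 0.00508) and Actg2 (-2.82, SE 1.21, adjusted p = 0.0464), where 29.4% of all tested genes were called in that direction. Cnn1 was also higher in germ than in Mfap5- interstitial cells (fold change of interstitial over germ cells -1.94 on the log2 scale, SE 0.74, adjusted p = 0.0258), as were 32.9% of all tested genes.

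In level these germ cell values were small. Cnn1 stood at 5.64 and 4.39 CPM, Myh11 at 3.64 and 4.23 CPM and Actg2 at 4.19 and 1.78 CPM. Cnn1 was carried by 33% and 21.1% of germ cells at full depth and by 1.54% and 0.562% at 2000 UMIs. At full depth, at least 2 of Actg2, Cnn1, Myh11 and Lmod1 occurred in 33 of 197 and 36 of 361 germ cells, of which 3 and 2 carried Acta2. At 2000 UMIs no germ cell of either library carried more than 1 of the 9 genes. In Mfap5+ interstitial cells 2 of 158 and 8 of 199 carried at least 2 of these 4 genes at full depth, all with Acta2. Their median depth was far lower, 7141.5 and 6703 UMIs, so the full-depth counts of the 2 gates are not on a par.

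Other genes of the contractile apparatus were read from a list of 30 partners, of which 27 were tested. In perivascular cells 8 were higher and 0 lower than in Mfap5- interstitial cells, where 3.2% of all tested genes were higher and 2.68% lower. Against Mfap5+ interstitial cells 8 were higher and 1 lower, beside 2.83% and 2.18% of all tested genes. The gene that was lower was Csrp1 (log2 fold change -1.19, SE 0.30). Their median log2 fold change over Mfap5- interstitial cells was 0.62, against -0.26 for all genes. Itga1, a collagen-binding integrin subunit, was at 574 and 430 CPM in perivascular cells and at 15 and 15.2 CPM in Mfap5- interstitial cells (log2 fold change 4.98, SE 0.25, edgeR adjusted p = 2.91e-09). Mustn1 had 10 and 18 UMIs in perivascular cells and 1 and 2 in Mfap5- interstitial cells. Ppp1r14a, an inhibitor of myosin phosphatase, rose from 43.7 and 66.8 CPM to 342 and 457 CPM (2.76, SE 0.27), Cald1 (caldesmon) by 1.63 (SE 0.32) and Tpm1 by 1.15 (SE 0.22) on the log2 scale. Mylk, the kinase that phosphorylates the light chain, was at 261 and 388 CPM in perivascular and 210.4 and 211 CPM in Mfap5- interstitial cells and did not pass (0.52, SE 0.24).

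Of 18 regulators of contractile genes, 16 were tested. In perivascular cells 3 were higher and 2 lower than in Mfap5- interstitial cells, where 3.2% of all tested genes were higher and 2.68% lower. Their median log2 fold change there was -0.36, against -0.26 for all genes. Against Mfap5+ interstitial cells 2 were higher and 3 lower, beside 2.83% and 2.18% of all tested genes. Higher than in Mfap5- interstitial cells were Heyl (log2 fold change 5.12, SE 0.32), a target of Notch signalling, its ligand gene Jag1 (3, SE 0.58), and Tgfb1 (1.41, SE 0.40). Lower were the transcription factor genes Gata6 (-2.42, SE 0.47) and Tcf21 (-2.16, SE 0.30). The perivascular gate uses Notch3, and Heyl is of the same pathway. Myocd had 0 UMIs in perivascular cells, 5 and 6 in Mfap5+ interstitial and 2 and 10 in Mfap5- interstitial cells, and Srf held 5 and 1 UMIs in perivascular cells. For Myocd a count of 0 in perivascular cells allows up to 17.4 and 20.8 CPM, above its level in either interstitial gate, so its absence cannot be read from these cells. Among the other actins, Acta1 and Actc1 of striated muscle were at 0 in perivascular cells, as they were in Mfap5+ interstitial, mesothelial and endothelial cells. The cytoplasmic Actb (0.42, SE 0.17) and Actg1 (-0.35, SE 0.17) did not pass.

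Between the interstitial gates, 0 of the 27 tested partners and 0 of the 16 tested regulators were called by edgeR, in a comparison where 0 genes of all were lower in Mfap5+ cells.

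The genes whose levels over the 14 profiles of gate and library were most like those of the 9 genes were named by Pearson's r of log2(CPM + 1), as a description, since the profiles share libraries and gates. Acta2 and Tagln resembled each other most (r = 0.985), followed by Tagln and Tpm2 (0.965) and Acta2 and Tpm2 (0.949). Cnn1 and Actg2 formed a pair of their own (0.913) and were far from Myl9 (0.137 and 0.169). Outside the set, Acta2 was most like 4930579G24Rik (0.968), Loxl3 (0.967) and Tpm1 (0.966), and Tagln most like Loxl3 (0.967), C1qtnf2 (0.963) and Cys1 (0.961). Tpm2 was closest to Cys1 (0.975), Loxl3 (0.963) and Glipr2 (0.959). Myl9 was closest to Armcx3 (0.974), H3f3a (0.971) and Tmem165 (0.968). Des was closest to Pdgfrb (0.965), Tslp (0.944) and Ankrd13b (0.940), and Lmod1 was close to Itga4 (0.955) and Dock10 (0.95). Myh11 was closest to Tbx3os1 (0.939), Stbd1 (0.914) and Arhgef10l (0.901). Actg2 was closest to Dmp1 (0.910), Eri2 (0.887) and Dnajc14 (0.852), and Cnn1 to Dnajc14 (0.917), Dmp1 (0.892) and Ccnc (0.876).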

How the data were processed

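Dissociated cells of postnatal day 2 mouse ovaries were captured on the 10x Genomics Chromium system as 2 libraries. The submitters' processing notes name Cell Ranger 3.0.2 and GRCm38. The values deposited by the authors are raw UMI counts for every gene in every cell, with no normalization. The kit is given as version 2 in the labels and as version 3 in the methods. The files hold 54471790 and 59074480 UMIs, and intervals cover counting error only.

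Cells with at least 500 genes, at most 10% mitochondrial counts and no doublet call were kept. Doublets were scored with Scrublet in scanpy 1.11.5 at the automatic threshold of replicate 1 (0.225), which marked 96 and 93 cells, because that of replicate 2 (0.521) lay far higher. Gates needed at least 1 UMI each of Rgs5 and Notch3, 2 each of Col1a2 and Dcn (split by 1 UMI of Mfap5), 2 of Upk3b, 3 over Foxl2, Fst and Wnt6 with 2 of these genes present, 1 of Cdh5, or 3 over Ddx4 and Dazl. Cells passing several gates (9.19%) were left out, other than perivascular cells also passing the interstitial gate, and 8.71% passed none. UMIs were summed over 7 gates and 2 libraries into 14 profiles and fitted together by edgeR's quasi-likelihood test (version 4.0.16, R 4.3.3) after filterByExpr and TMM scaling. Calls needed a Benjamini-Hochberg adjusted p under 0.05 and an absolute log2 fold change over 1. The SE beside a log2 fold change was derived from the test, as the size of the change divided by the square root of the F statistic. Lmod1 did not pass filterByExpr. The fit was tried on simulated data in which 200 genes were changed 4-fold in perivascular cells. Against Mfap5- interstitial cells it called 104 of them (52%), with 7 false calls, so many differences of that size would be missed. Shares used cells thinned to 2000 UMIs. The likeness of genes was computed among genes with at least 50 UMIs in gated cells, leaving out the gate genes and the 9 genes, and the 3 of highest r were named, other than 1 gene that is not reported here. Listed genes were named if called, largest folds first, and Mylk, Srf, Myocd and the other actins were named for their roles after their values were seen. Promoters came from a RefSeq table of GRCm38.p6.

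Same-numbered profiles come from the same animals, and deviations of a library correlated between gates by 0.007 to 0.312 (median 0.079) over 12430 genes. A replicate block was tried as an alternative, beside other gates, filters, scaling and DESeq2 1.42.0. The members, gates and gene lists were chosen with earlier results of these data known. In the main fit the spread of each gene is estimated between libraries over all 7 gates together, and the 14 profiles enter as independent. The p-values rest on that pooled spread, not on the libraries of the 2 compared gates alone.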

Additional observations from a re-analysis of the deposited data

Results flagged for a closer look

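Cells outside the gated comparisons also held transcripts of the set, and their counts were over the 3 that a count of 0 would allow. Cells that passed no gate held 174 Acta2 UMIs in replicate 1 and 153 in replicate 2, or 152 and 86.2 CPM. These cells were mixed. Markers of immune cells summed to 2906 and 2881 CPM in them, erythroid markers to 40.3 and 2943 CPM and further germ markers to 565 and 3401 CPM. Further interstitial markers summed to 343 and 531 CPM. A single cell held 30 of the Acta2 UMIs of replicate 1, and a single cell held 42 of those of replicate 2. Which kinds of these cells carried the rest was not tested. Cells that passed several gates held 809 and 780 Acta2 UMIs, or 135.7 and 58 CPM. No test was made on these cells, and groups of 2 libraries are too small for the check of single outlying samples.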

How the results depend on the processing

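With 2 libraries and 31 and 27 perivascular cells, a gene that was not called is not shown to be equal. The number of genes higher in perivascular cells kept within 1.5 times under looser gates, stricter gates, perivascular cells of the interstitial gate left out, library size scaling, DESeq2, no doublet removal and no cell filter. With cells thinned to 2000 UMIs it was 1 against Mfap5+ interstitial cells and 5 each against Mfap5- interstitial, mesothelial, granulosa and germ cells, where fewer UMIs are counted, and 1 gene was called between the interstitial gates. Without the filter on low genes it was 5 against Mfap5+ interstitial cells and 4 between the interstitial gates, and the cause was not tested. With the library as a replicate block the counts were 3 against Mfap5+ interstitial cells and 8 against every other gate, and 0 between the interstitial gates, so the block moved no count by over 1.5 times. It brought Actg2 against endothelial cells (adjusted p = 0.0346) and Tpm2 against Mfap5+ interstitial cells (0.045) under the threshold and took no call away.

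Taking each library alone, as the number of genes over 2-fold on TMM-scaled values without a test, gave 2 to 6 against Mfap5+ interstitial, 3 to 8 against Mfap5- interstitial, 6 to 8 against mesothelial, granulosa, endothelial and germ cells, and 2 to 5 between the interstitial gates. On unscaled CPM the low ends against Mfap5+ and Mfap5- interstitial cells were 3 and 5. Without replicate 2, the log2 fold changes over Mfap5- interstitial cells of Actg2 and Cnn1 came out at -1.99 and -4.79 (5.78 and 6.46 without replicate 1). Both genes had 0 UMIs in the perivascular cells of replicate 1, so the negative values are set by the added prior count of 0.5. That 0 allows up to 17.4 CPM, above the 0.256 and 2.31 CPM of Mfap5- interstitial cells of replicate 1. The direction in replicate 1 can therefore not be read.

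Cells not thinned gave Acta2 in 81% and 56.8% of Mfap5+ interstitial and 69.4% and 33.3% of Mfap5- interstitial cells, and Acta2 with Tagln in 48.7% and 38.7%, and in 31% and 9.95%. These shares lay above the intervals of the thinned shares. Gate and filter alternatives were run on thinned cells only, and there both shares stayed within the intervals of their main values.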
